A study of Mus musculus with 3 samples.

Results

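The Src family kinases are described here together with Sla and Sla2, the adaptors that resemble them, as measured by UMI-RNAseq in NIH3T3 cells. The set holds 9 of the 55573 genes in the table and was picked out by gene name. Src, Fyn and Yes1 are the kinases found in most tissues. Lck, Lyn, Fgr and Blk are known mainly from blood cells, as are both adaptors. NIH3T3 is an established mouse fibroblast line. The data hold 3 libraries of 1 condition, called library 1, library 2 and library 3, from cells grown in DMEM with fetal bovine serum and antibiotics, and the labels give no treatment, transgene or deletion. The sources used here do not state whether they came from separate cultures, so each SD (n = 3) covers the spread between these libraries, which may be technical. A level of bulk RNA cannot tell fewer expressing cells from less RNA per cell.

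Src family kinases sit on the inner face of the plasma membrane and add phosphate to tyrosines of other proteins. In fibroblasts they act downstream of integrins and growth factor receptors, while in lymphocytes and myeloid cells they start signalling from antigen and Fc receptors. Each kinase carries a short lipid-modified N-terminal segment, an SH3 domain, an SH2 domain, a kinase domain and a C-terminal tail. A tyrosine in that tail, once phosphorylated by Csk, folds onto the SH2 domain and holds the kinase inactive. Sla and Sla2 have the SH3 and SH2 domains but no kinase domain, and they dampen antigen receptor signalling in lymphocytes.

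The first 12 codons of each coding sequence are shown because they encode the membrane-binding segment, a stretch that differs from member to member. They were taken from the GENCODE M21 transcripts (GRCm38), from the principal isoform with the longest coding sequence. Capitals mark cysteine codons, which are candidate palmitoylation sites.
Src: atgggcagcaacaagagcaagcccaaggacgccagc
Fyn: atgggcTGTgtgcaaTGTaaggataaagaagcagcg
Yes1: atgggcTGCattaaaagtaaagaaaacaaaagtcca
Lck: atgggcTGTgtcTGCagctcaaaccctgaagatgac
Lyn: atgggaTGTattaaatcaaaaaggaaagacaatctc
Fgr: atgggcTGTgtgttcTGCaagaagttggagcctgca
Blk: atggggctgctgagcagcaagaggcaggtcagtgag
Sla: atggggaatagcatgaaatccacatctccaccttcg
Sla2: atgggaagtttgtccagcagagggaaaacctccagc

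A glycine codon, the site of myristoylation, followed the start codon in all 9 sequences. Fyn, Fgr and Lck each had 2 cysteine codons in this stretch, Yes1 and Lyn had 1, and Src, Blk, Sla and Sla2 had 0. The number of cysteine codons thus did not separate the ubiquitous kinases from the blood-cell kinases. The last 16 codons of the 7 kinases, stop codon included, are shown because they hold the inhibitory tyrosine, whose codon is in capitals.
Src: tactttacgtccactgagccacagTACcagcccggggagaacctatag
Fyn: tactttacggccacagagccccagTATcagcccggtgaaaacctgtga
Yes1: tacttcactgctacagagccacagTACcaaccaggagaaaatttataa
Fgr: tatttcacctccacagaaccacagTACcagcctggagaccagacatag
Lck: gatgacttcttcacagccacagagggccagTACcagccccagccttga
Lyn: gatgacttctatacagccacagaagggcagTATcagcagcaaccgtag
Blk: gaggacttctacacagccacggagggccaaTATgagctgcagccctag

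The tyrosine codon was followed by 6 codons before the stop in Src, Fyn, Yes1 and Fgr, and by 4 in Lck, Lyn and Blk. Fgr thus ended like the ubiquitous kinases although it is known from myeloid cells. Over the whole coding sequence, Fgr was also as close to Src as its ubiquitous relatives were. In a global alignment of nucleotides, with gap columns counted as differences, identity with Src was 69.3% for Fgr, 67.9% for Fyn, 67.1% for Yes1, 61.2% for Lck, 60.3% for Blk and 59.6% for Lyn. Coding sequences measured 1608 nt for Src, 1605 nt for Fyn and 1626 nt for Yes1, against 846 nt for Sla and 780 nt for Sla2. Sla and Sla2 were identical in 52.1% of alignment columns, gaps included, and in 66.8% of aligned bases. By aligned bases alone, Src reached 70.1% with Sla and 71.7% with Sla2, so that measure does not rank likeness.

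The authors deposited FPKM, a level scaled for gene length in kilobases and for 1000000 counted fragments. UMI-RNAseq tags each molecule before amplification, and copies with the same tag and map position were removed before counting. The fragments behind each value were recovered from the FPKM, and the library totals lay between 13959723 and 14423209. Among all genes listed, 23.2% had a mean FPKM of at least 1, the limit used below for a clear level, and among protein-coding genes 49.2% did. Of the 9 members, 3 did. The labels were checked against marker genes. Of 12 fibroblast markers 11 reached that limit, from Fn1 at 4377 ± 86.1 FPKM (SD, n = 3) down to S100a4, while Lum was at 0. None of 10 lymphocyte markers did, with a summed level of 0.0720 to 0.608 FPKM per library; Cd79a was the highest at 0.145, and Cd3e, Cd3g, Cd2, Ms4a1 and Cd8a had 0. Of 10 myeloid and platelet markers, 3 did (Itga2b, Lyz2 and Cd68), with a summed level of 14.1 to 15.7 FPKM and with Itgam, Adgre1 and Pf4 at 0. The extraction text of the labels mentions retina, but none of 11 retina genes reached the limit, the highest being Rcvrn at 0.363 FPKM, with Nrl and Grm6 at 0.

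All 3 ubiquitous kinases were expressed, Fyn the most. Fyn (ENSMUSG00000019843), which also has a lymphocyte isoform, is protein coding like the other members and lies on the plus strand of chromosome 10 from 39368855 to 39565381 (GRCm38). The values were 76.3 FPKM in library 1, 81.7 in library 2 and 80.0 in library 3, averaging 79.4 ± 2.74 (SD, n = 3). They rest on 2103, 2178 and 2187 fragments. Fyn lay above 87.4% of the 12905 genes that reached the limit.

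Src (ENSMUSG00000027646), the founding member of the family, lies on the plus strand of chromosome 2 from 157418444 to 157471862. It had 48.6, 46.8 and 48.3 FPKM in libraries 1, 2 and 3, with a mean of 47.9 ± 0.928 (SD, n = 3), from 1618, 1510 and 1595 fragments. It was lowest in library 2, the library in which Fyn was highest. Yes1 (ENSMUSG00000014932), named after the Yamaguchi sarcoma virus oncogene, lies on the plus strand of chromosome 5 from 32611171 to 32687057. It had 19.2, 20.2 and 19.3 FPKM, with a mean of 19.6 ± 0.585 (SD, n = 3), from 755, 772 and 755 fragments. The ranges of Fyn, Src and Yes1 did not overlap.

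**Figure D1:**
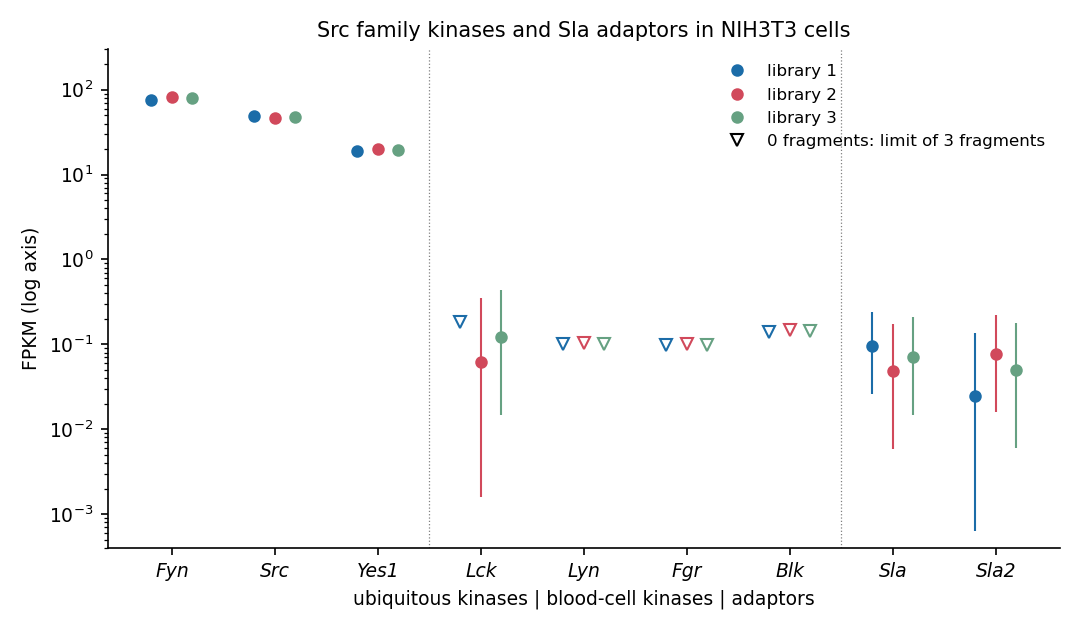
FPKM (log axis) of the 9 genes in each of the 3 libraries; points are deposited values, lines are exact 95% intervals of counting error, and open triangles mark libraries with 0 fragments at the level 3 fragments would give. The deposited values of Fyn, Src and Yes1 lie between 19.2 and 81.7 FPKM, and those of the blood-cell kinases and adaptors do not exceed 0.122, although some of their lines and triangles reach higher.

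Within each library, Fyn was 1.57, 1.74 and 1.66 times as high as Src in libraries 1, 2 and 3, with a mean ratio of 1.66 ± 0.0863 (SD, n = 3), or 0.73 ± 0.08 on the log2 scale. Src was 2.53, 2.31 and 2.50 times as high as Yes1, with a mean of 2.45 ± 0.119 (SD, n = 3), or 1.29 ± 0.07 on the log2 scale. Both differences were larger than the spread between libraries and had the same direction in 3 of 3 libraries. In an exact permutation test that flipped the sign of each library's log2 ratio, the two-sided result was p = 0.25 for each, which is the smallest p that 3 libraries allow and cannot pass 0.05.

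Together the 3 kinases reached 144.1, 148.8 and 147.6 FPKM. Fyn made up 54.0% ± 0.974 of this sum (SD, n = 3), Src 32.6% ± 1.12 and Yes1 13.3% ± 0.262. The share of Src lay between 31.5% and 33.7% and that of Fyn between 53.0% and 54.9%. Which length the fragments are divided by bears on these shares. The deposited FPKM used the rounded mean length of the annotated isoforms, 1910 nt for Fyn (9 isoforms of 333 to 3562 nt), 2310 nt for Src (8 isoforms of 222 to 3906 nt) and 2731 nt for Yes1 (5 isoforms of 1403 to 4586 nt). With the longest isoform in its place, the shares were 51.5% ± 0.978 for Fyn, 34.3% ± 1.14 for Src and 14.1% ± 0.284 for Yes1. Without any division by length, Fyn kept 48.0% ± 0.941 of the fragments, Src 35.1% ± 1.15 and Yes1 16.9% ± 0.340. The order of the kinases was the same in the 3 versions. Gene-level values do not separate the isoforms of Fyn or of Src, nor can they show which isoform NIH3T3 cells used.

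**Figure D2:**
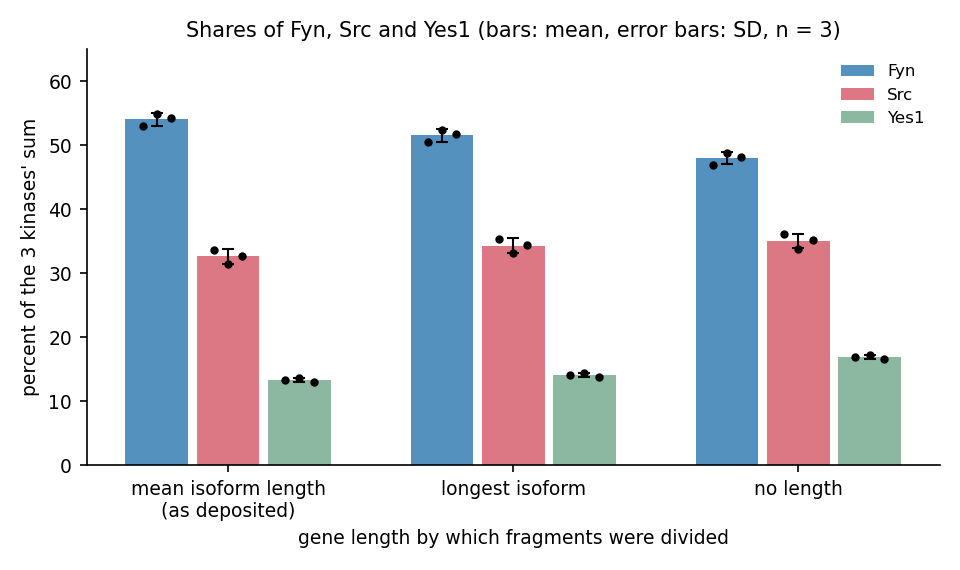
Percent of the summed level of Fyn, Src and Yes1 held by each kinase, with fragments divided by the mean isoform length (as deposited), by the longest isoform, or by no length; bars are means, error bars SD and dots the 3 libraries. Fyn falls from 54.0% to 48.0% and stays the highest throughout.

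The spread of the ubiquitous kinases between libraries was small. For Src the coefficient of variation was 1.94%, against 2.52% from counting error alone, and for Yes1 it was 2.99% against 3.63%. For Fyn it was 3.45% against 2.15%, above the counting error for Fyn and below it for the others. It was not tested. Stretches of 75 nt were compared between the annotated transcripts of all genes, and Src, Fyn, Lck, Fgr, Blk and Sla shared none with any other gene. Of the distinct stretches of Yes1, 7.43% were shared with Gm10461 or Hspa4l. Gm10461, on the opposite strand, overlaps 635 nt of its exons and had 0.226 ± 0.0550 FPKM (SD, n = 3).

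The blood-cell kinases were at or near 0. Lyn (ENSMUSG00000042228), the kinase of B cell and mast cell receptors, lies on the plus strand of chromosome 4 from 3678115 to 3813122. It had 0 fragments in each library. Over all 42690173 fragments, a count of 0 was given a limit of 3 fragments, or 0.0342 FPKM. Fgr (ENSMUSG00000028874), a kinase of neutrophils and macrophages, lies on the plus strand of the same chromosome from 132974095 to 133001910. It also had 0 fragments, with a limit of 0.0329 FPKM. Blk (ENSMUSG00000014453), the B lymphoid kinase, is found between 63372836 and 63417037 of chromosome 14, minus strand, and had 0 fragments, with a limit of 0.0477 FPKM. Such limits cover counting error only. Against them, Fyn was at least 2321-fold higher than Lyn, 2411-fold higher than Fgr and 1664-fold higher than Blk, and Yes1, the lowest of the ubiquitous kinases, was at least 573-fold, 595-fold and 411-fold higher. None of 20 housekeeping genes checked was at 0, the lowest having 9.76 FPKM, a check that does not bear on weakly expressed genes. Of the distinct 75-nt stretches of Lyn, 14.4% were shared with Gm26857, on the opposite strand and at 0 in each library, or Gm11787.

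Lck (ENSMUSG00000000409), the kinase of the T cell receptor co-receptors, was the only blood-cell kinase of the set with any fragment. Its gene is found between 129548344 and 129573641 of chromosome 4, minus strand. There were 0, 1 and 2 fragments in libraries 1, 2 and 3, or 0, 0.0627 and 0.122 FPKM. Over all libraries the 3 fragments gave 0.0615 FPKM, with an exact Clopper-Pearson 95% interval from 0.0127 to 0.180. The microRNA gene Mir8119, at 0 in each library, overlaps 25 nt of its exons. The pooled ratio of Fyn to Lck was 1290, with an interval from 441 to 6258.

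Both adaptors had a few fragments. Sla (ENSMUSG00000022372), which lowers T and B cell receptor levels, is found between 66780819 and 66831829 of chromosome 15, minus strand. It had 0.0943 FPKM in library 1, 0.0487 in library 2 and 0.0713 in library 3, from 4, 2 and 3 fragments. The gene lies within the body of Tg, the thyroglobulin gene, on the opposite strand, but the exons of the pair do not overlap and Tg itself had 0.158 ± 0.0999 FPKM (SD, n = 3).

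Sla2 (ENSMUSG00000027636), one of the transcripts that the study chose for imaging, is found between 156872457 and 156887192 of chromosome 2, minus strand. It had 0.0247, 0.0766 and 0.0499 FPKM, from 1, 3 and 2 fragments. On the opposite strand, the exons of Rab5if overlap 731 nt, or 23.6%, of the exons of Sla2, and 18.6% of the 75-nt stretches of Sla2 are shared with it. Rab5if had 30.3 FPKM in library 1, 14.8 in library 2 and 14.1 in library 3. Whether the counting used strand is not given in the sources used here, so the 6 fragments of Sla2 cannot be assigned to it with certainty. The part of Rab5if in them was not tested.

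Sla, Lck and Sla2 could not be put in order. By mean FPKM they followed Yes1 as Sla, Lck, Sla2, at 0.0714, 0.0617 and 0.0504. Sla was above Sla2 in 2 of 3 libraries and above Lck in 1 of 3, and Lck was above Sla2 in 1 of 3. For Sla to Sla2, the pooled ratio was 1.43 with an exact 95% interval from 0.455 to 4.88, and the same exact permutation test over the 3 libraries gave p = 0.75. For Sla to Lck, the interval of the ratio ran from 0.291 to 6.70, and for Lck to Sla2 from 0.198 to 5.74. Yes1, the next gene above them, was 273 times as high as Sla (interval 144 to 598), 318 times as high as Lck (109 to 1545) and 391 times as high as Sla2 (179 to 1065). The ratio of Yes1 to Sla was above 1 in 3 of 3 libraries, with p = 0.25 in the same exact test.

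The 6 blood-cell members summed to 5, 6 and 7 fragments in libraries 1, 2 and 3, against 4476, 4460 and 4537 for Src, Fyn and Yes1. In FPKM, the blood-cell sum was 0.119, 0.188 and 0.243. The ubiquitous sum lay above it by 10.24, 9.63 and 9.24 on the log2 scale, with a mean of 9.70 ± 0.50 (SD, n = 3). It is a description with no test. With Lyn, Fgr and Blk set to their limits, the mean was 8.96 on the log2 scale.

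The members were set among 31 cytoplasmic tyrosine kinases, a list added after the values were known. Fyn ranked 4, behind Jak1 (276.8 FPKM), Tnk2 (149.9) and Abl1 (87.4), which act in cytokine, Cdc42 and cytoskeletal signalling. Src ranked 8 and Yes1 ranked 11. Ptk2, the focal adhesion kinase that pairs with Src at integrin contacts, ranked 5 at 65.6 ± 2.73 FPKM (SD, n = 3), and its range of 63.1 to 68.5 lay below that of Fyn. Csk ranked 7. Yes1 and Jak2, at 20.4 ± 0.588 FPKM (SD, n = 3), had overlapping ranges. Of the 31 kinases, 16 (51.6%) had a mean FPKM of at least 1, near the 49.2% of protein-coding genes listed (23.2% of all genes). Lck ranked 22, and Lyn, Fgr, Blk and Bmx were at 0.

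**Figure D3:**
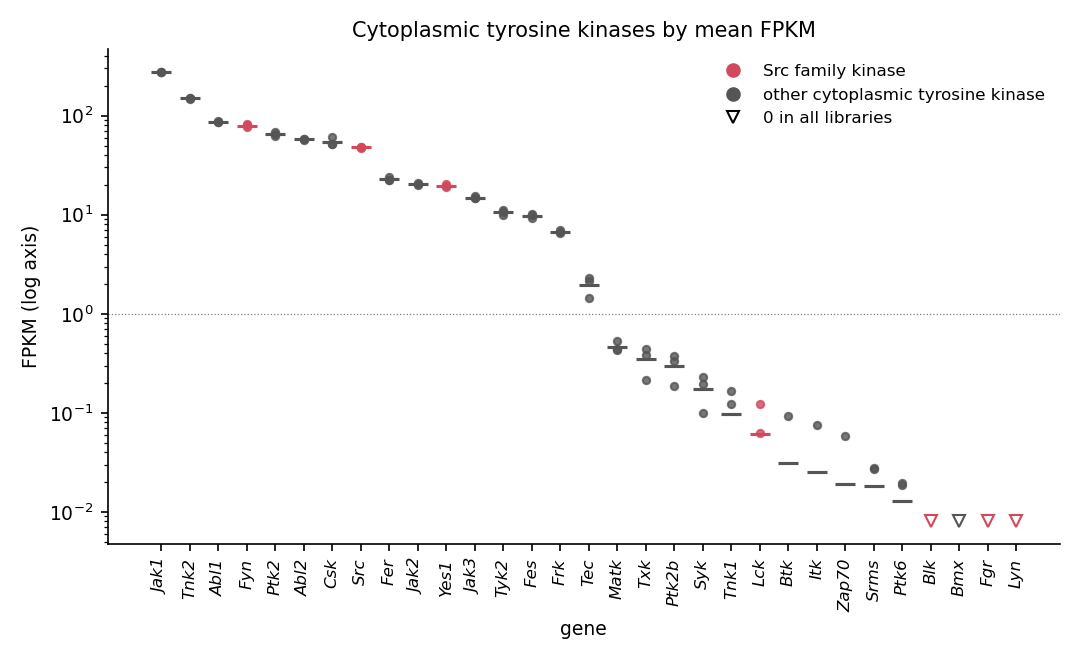
FPKM (log axis) of 31 cytoplasmic tyrosine kinases in order of their mean; points are libraries with a value above 0, horizontal marks are means over 3 libraries, and open triangles are genes at 0 in all libraries. Fyn, Src and Yes1 are among the 11 highest, while Lyn, Fgr and Blk are at 0.

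The genes that control the Src tail and bind or modify the kinases were taken from lists chosen by known role. Over their 62 genes, 36 (58.1%) had a mean FPKM of at least 1, against 23.2% of all genes and 49.2% of protein-coding genes listed. In the related kinases outside the set, only Frk passed, at 6.75 ± 0.168 FPKM (SD, n = 3), while Srms had 0.0184 and Ptk6 0.0127. Frk and Ptk6 are known from epithelia.

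Of the kinases that phosphorylate the tail and their membrane anchors, Csk had 60.3, 52.1 and 52.1 FPKM in libraries 1, 2 and 3, with library 1 above the others. Its mean was 54.8 ± 4.76 (SD, n = 3). Matk, the form known from blood and brain, had 0.466 FPKM. The anchor Pag1 had 5.01 ± 0.159 FPKM and the lymphocyte anchor Lime1 had 0.0262. Csk was thus the main transcript of the tail kinases, above Src in each library and below Fyn.

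Phosphatases that can remove the tail phosphate were present apart from those of blood cells. Ptpn11 had 52.2 ± 0.972 FPKM (SD, n = 3), Ptpn1 had 33.1 ± 0.886, Ptpra had 30.4 ± 1.63 and Ptpre had 15.2 ± 0.944. Ptprc, which encodes CD45 and acts on Lck in lymphocytes, had 0, 0.0493 and 0.0241 FPKM in the 3 libraries, and Ptpn6, the SHP-1 phosphatase of blood cells, had 0.489 ± 0.0825. Among the Cbl ligases, which mark active Src kinases and receptors for degradation, Cbl had 60.9 ± 2.42 FPKM, Cblb 15.3 ± 0.452 and Cblc, the epithelial form, 0.215 ± 0.189.

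Substrates and scaffolds at adhesions were expressed in 14 of 16 cases, with a median of 60.8 FPKM. The highest was Cav1, a caveolar protein first described as a Src substrate, at 460.0 ± 1.81 FPKM (SD, n = 3). The exceptions were Ptk2b, at 0.298 FPKM, and Efs, a Cas-family scaffold that was at 0 in the 3 libraries. All 10 genes for lipid modification of the N-terminal segment passed, from Metap2, a peptidase that removes the start methionine, at 125.7 ± 2.09 FPKM, to Unc119, a carrier of myristoylated proteins, at 19.6 ± 0.986.

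Of 20 receptors and adaptors that Src kinases serve in lymphocytes, 3 passed and 8 were at 0, with a median of 0.0223 FPKM. The share that passed was 15%, against 49.2% of protein-coding genes and 23.2% of all genes listed. A level of 0 was common, with 6206 of the 21980 protein-coding genes and 29380 of all 55573 genes there. The receptor chains Cd3d, Cd3e, Cd3g, Cd8a, Cd28 and Cd79b and the adaptors Blnk and Sh2d1a had no fragment. Zap70, which Lck activates and which Sla and Sla2 bind, had 0.0192 FPKM and Lat had 0.324. The highest was Lcp2, the SLP-76 adaptor, at 7.58, 7.32 and 6.19 FPKM in libraries 1, 2 and 3, from 185, 173 and 150 fragments. Fyb, an adaptor that Fyn phosphorylates in T cells, had 1.48, 2.89 and 1.88 FPKM, from only 19, 36 and 24 fragments. The kinase Tec had 1.45, 2.12 and 2.32 FPKM, from 41, 58 and 65 fragments. Fyb, Tec, Zap70, Lat and the genes at 0 were picked for naming once values were known. Gm7666, a pseudogene on the same strand with 2.80 ± 0.164 FPKM (SD, n = 3), overlaps 4.29% of the exons of Fyb. The gene of Lcp2 lies inside 4930469K13Rik, on the opposite strand, which had 0.0953 FPKM and overlaps 6.32% of its exons.

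**Figure D4:**
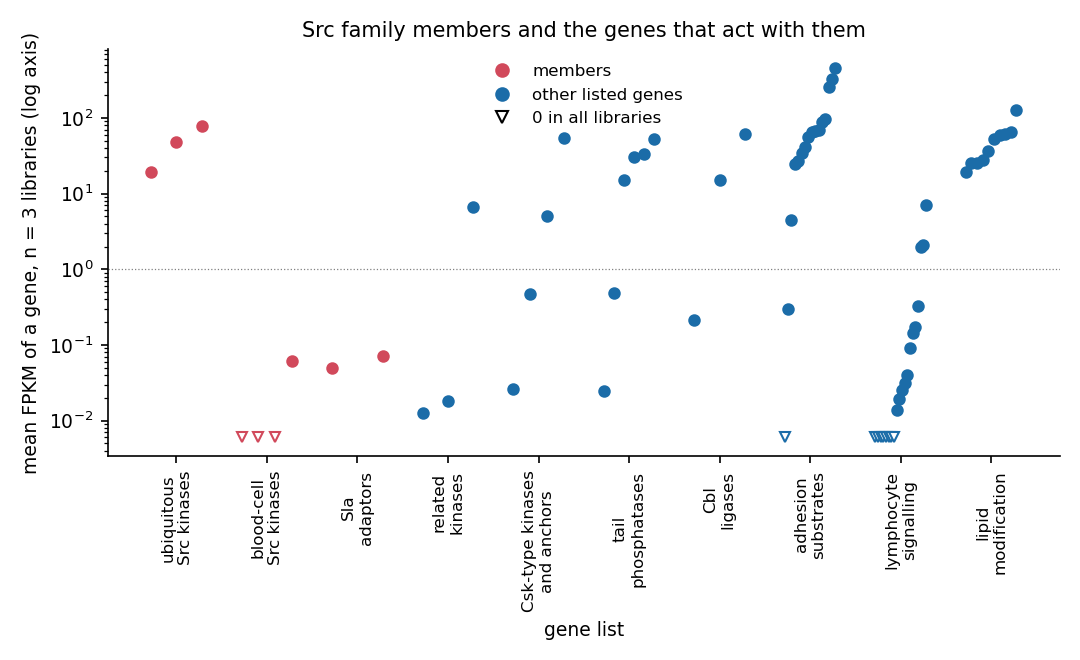
Mean FPKM over 3 libraries (log axis) of each gene in the 3 member lists (red) and in the 7 lists of genes that act with them (blue), with open triangles for genes at 0 and a dotted line at 1 FPKM. The lipid modification list lies wholly above the line, and 17 of the 20 lymphocyte signalling genes lie below it.

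Promoters were compared because the ubiquitous and the blood-cell members differed so widely in level. Promoter sequences of RefSeq (GRCm38.p6), from 250 bases before to 50 bases after the start, matched 6 of the 9 members: Src, Fyn, Yes1, Fgr, Sla2 and Lck, which has both a distal and a proximal promoter. Promoters were not listed for Lyn, Blk and Sla. The promoters of Fyn and Yes1 are shown beside the proximal Lck promoter and that of Sla2 to make the difference in CpG content visible. Capitals mark the letters GGGCGG, a core of the GC box, and GGAAGT, a core of Ets sites, on either strand, so that CCGCCC and ACTTCC also count. The motifs were chosen after the sequences were seen.
Fyn, chr10:39369549-39369848, plus strand: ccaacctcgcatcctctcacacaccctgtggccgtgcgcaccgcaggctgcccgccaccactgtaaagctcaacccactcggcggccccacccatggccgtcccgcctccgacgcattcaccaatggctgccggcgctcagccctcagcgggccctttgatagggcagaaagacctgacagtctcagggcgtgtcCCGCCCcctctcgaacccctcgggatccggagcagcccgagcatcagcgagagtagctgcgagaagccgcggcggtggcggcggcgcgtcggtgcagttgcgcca
Yes1, chr5:32610921-32611220, plus strand: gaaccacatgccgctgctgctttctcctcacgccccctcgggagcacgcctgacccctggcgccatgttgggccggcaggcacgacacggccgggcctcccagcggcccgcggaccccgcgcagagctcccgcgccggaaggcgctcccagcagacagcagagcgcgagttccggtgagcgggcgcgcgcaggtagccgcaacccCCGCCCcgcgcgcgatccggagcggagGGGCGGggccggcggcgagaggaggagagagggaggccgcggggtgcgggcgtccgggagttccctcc
Lck, chr4:129558323-129558622, minus strand: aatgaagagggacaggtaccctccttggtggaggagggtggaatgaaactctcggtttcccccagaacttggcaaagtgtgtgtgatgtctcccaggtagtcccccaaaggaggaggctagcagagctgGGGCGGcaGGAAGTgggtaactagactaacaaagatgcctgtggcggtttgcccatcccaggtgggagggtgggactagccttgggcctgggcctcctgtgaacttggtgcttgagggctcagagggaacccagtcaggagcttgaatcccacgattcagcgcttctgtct
Sla2, chr2:156887172-156887471, minus strand: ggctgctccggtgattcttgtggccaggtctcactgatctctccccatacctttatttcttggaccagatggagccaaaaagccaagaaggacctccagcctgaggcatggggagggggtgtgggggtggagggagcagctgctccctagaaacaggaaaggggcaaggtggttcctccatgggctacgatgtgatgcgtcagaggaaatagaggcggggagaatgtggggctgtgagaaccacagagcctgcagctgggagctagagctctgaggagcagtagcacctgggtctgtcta

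The promoters of the ubiquitous kinases were rich in CpG and the others were not. In 300 bases, Src had 47 CpGs, Yes1 had 42 and Fyn had 31. Fgr had 11, the distal Lck promoter 7, the proximal Lck promoter 5 and Sla2 had 4, against a median of 7 over all 32851 promoters. The ratio of observed to expected CpG was 0.945 for Yes1, 0.927 for Src and 0.891 for Fyn, higher than in 90.7%, 89.3% and 86.6% of promoters. It was 0.373 for Fgr, 0.289 and 0.211 for the distal and proximal Lck promoters, and 0.170 for Sla2.

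GGGCGG or its reverse complement occurred 2 times in Src and in Yes1 and 1 time in Fyn and in the proximal Lck promoter, and in 35.7% of all promoters. GGAAGT or its reverse complement occurred 1 time in Fgr and in each Lck promoter, in none of the ubiquitous kinases or Sla2, and in 23.8% of all promoters. Among 17442 genes with 1 listed promoter, 74.6% of those with a CpG ratio of at least 0.6 had a mean FPKM of at least 1, against 16.1% of those below it. Src, Fyn and Yes1 lay above both limits, and Fgr and Sla2 lay below both, each on the side of the majority in its class. Lck has 2 listed promoters and so belongs to neither class, though both its CpG ratios were below 0.6. Lyn, Blk and Sla could not be placed, as no promoter was listed for them. Whether CpG content accounts for the difference in level between the members was not tested. Methylation and factor binding were not measured in these libraries.

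**Figure D5:**
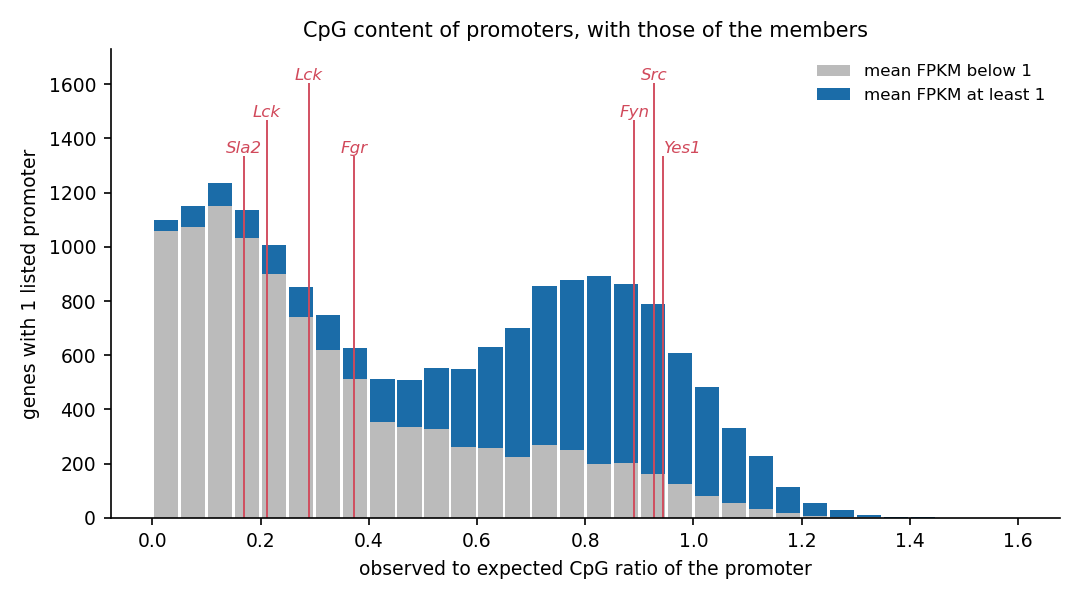
Number of genes with 1 listed promoter by the ratio of observed to expected CpG, split by mean FPKM below 1 (grey) and at least 1 (blue), with the promoters of 6 members as red lines. Fyn, Src and Yes1 lie between 0.891 and 0.945, and Sla2, Lck and Fgr lie at or below 0.373.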

How the data were processed

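UMI-RNAseq libraries of NIH3T3 cells (n = 3, 1 group by the cell line label) were analysed. The authors deposited FPKM per gene and library. By the study's methods, UMIs were found with UMI-tools, reads were mapped with HISAT2, duplicates with the same UMI and position were removed, and HTSeq counted reads per gene. The submitters' processing notes give the versions UMI-tools 1.0.0, HISAT2 2.0.4 and HTSeq 0.6.1, and also name DESeq 1.10.1. Deduplication lowers the part of amplification copies in the spread, but counts stay small for rare genes. The build and annotation used for counting are not given in the sources used here. Both tables hold the same values for 55573 genes, and 0 columns of values were left unused.

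Fragments were recovered as FPKM multiplied by the mean isoform length of GENCODE M21 (GRCm38), rounded to a whole number, and by the library total, which was set from genes with 1 isoform and 1 fragment. They were whole, within 0.0001 fragments (or a proportionally wider limit in genes above 1000 fragments), in 99.1% of the 26193 genes above 0, the members included. The steps were checked on simulated data. No count model was fitted, since there is 1 condition and the unit is FPKM. Intervals of 95% are exact (Clopper-Pearson, scipy 1.17.1), conditional on the summed fragments for ratios, and a count of 0 was given a limit of 3 fragments over all libraries. They cover counting error only. Ratios of neighbouring members were tested by an exact sign-flip permutation, without adjustment, because p cannot fall below 0.25. Coding sequences were aligned with Biopython 1.88 (match 1, mismatch -1, gap opening -3, extension -0.5). Overlap was measured in exon bases and as the percentage of distinct 75-nt words found in another gene's transcripts, on either strand. Python 3.11.15, numpy 2.4.6, pandas 2.3.3 and matplotlib 3.10.9 were used.

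The members and lists were chosen with earlier results of these data known. The rule for named genes took the 9 members, every gene of lists of up to 6, the highest and lowest of longer lists, and genes that overlap or share words with a member. Other genes named, among them Ptk2, Ptk2b, Zap70, Lat, Tec, Fyb, Jak2, Jak3 and Fes and the markers at 0, were picked after their values were seen. The lists outside the set are related kinases (Frk, Srms, Ptk6), tail kinases and anchors (Csk, Matk, Pag1, Lime1), tail phosphatases, Cbl ligases, adhesion substrates and scaffolds, lymphocyte receptors and adaptors, and lipid modification genes. Alternatives were leaving out each replicate, the median over libraries, TPM, scaling by median ratios, the longest isoform, no length, pseudocounts of 1 and 0.1, other FPKM limits, and leaving out single members. Some genes of the lists, and 1 alternative that needs one, are not reported here. No likeness of pattern between genes was computed, since the libraries are replicates.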

Additional observations from a re-analysis of the deposited data

How the results depend on the processing

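Leaving aside Lyn, Fgr and Blk, which no setting can move from 0, 68 values were recomputed under the alternatives. Of these, 54 stayed within the SD of the libraries (counts, within 1.5 times). Leaving out a replicate or taking the median cannot move a mean of 3 libraries by more than their SD. Such values were bound to stay, so the number that stayed does not measure robustness. The order Fyn, Src, Yes1, with Sla, Lck and Sla2 below, held in each alternative, whereas the order of Sla, Lck and Sla2 changed with the libraries and with the length used. Rescaling to 1000000 per library (TPM) moved the summed level of Src, Fyn and Yes1 to 212.8, and the longest isoform moved it to 82.5. The log2 ratio of the ubiquitous to the blood-cell sum became 6.97 with a pseudocount of 1, 9.04 with 0.1 and, from pooled fragments, 11.22 without Sla and Sla2. With members at 0 set to the limit of 3 fragments, an alternative added after seeing the data, it was 8.96. Without library 1 the mean of Lck rose from 0.0617 to 0.0925 FPKM, and without library 3 it was 0.0313, with 3 fragments in all. Leaving out Lyn left the ratio at 9.70, since it had 0 fragments, and leaving out each replicate gave 9.44 to 9.93. Of the 62 genes on the lists, 43 (69.4%) had a mean FPKM of at least 0.1, against 34.7% of all genes listed. At least 10 was reached by 30 (48.4%), against 14.8%, and 53 (85.5%) were above 0, against 47.1%. Of the 21980 protein-coding genes, the nearer background, 12896 reached 0.1, 7818 reached 10 and 15774 were above 0. No paired analysis was possible because the libraries form a single group. Depth limits statements on Lck, Sla and Sla2, which rest on 3 to 9 fragments each over all libraries.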

Other observations

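Some kinases and receptors best known from blood cells had clear levels in these fibroblasts, although the Src kinases of blood cells did not. They were noticed after the values were seen. Jak3, the kinase of the common gamma chain cytokine receptors, had 14.6, 15.5 and 14.6 FPKM in libraries 1, 2 and 3, from 735, 756 and 728 fragments. Insl3 overlaps 7.55% of its exons on the same strand and had 3.72 ± 0.659 FPKM (SD, n = 3). Fes, a kinase of myeloid cells, had 9.86, 10.2 and 9.34 FPKM, from 280, 279 and 263 fragments, with no annotated gene overlapping it. Itga2b, the platelet integrin chain, had 9.61, 9.08 and 10.8 FPKM, from 153, 140 and 170 fragments, and no annotated exon of another gene overlapped its exons. The 6 blood-cell members together had at most 7 fragments in a library. As the 3 genes were picked for their clear levels, this contrast was fixed in advance and is no test.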
